A study of Mus musculus with 12 samples.

Results

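A set of PARP family genes and Dtx3l was followed as RNA levels in mouse B cells given type I interferon, a Toll-like receptor agonist, or both. The 10 genes were taken by name from the 22561 genes of the count table: Parp1, Parp2, Parp8, Parp9, Parp10, Parp11, Parp12, Parp14, Dtx3l and Zc3hav1. The set was picked as interferon-induced genes, with earlier results of these data known. Parp1 and Parp2 were included as members that were not expected to answer interferon. Another 7 PARP family genes were read as a separate list. Counts of called members in the IFNα comparisons therefore describe this set and do not test whether PARP genes answer interferon. All 10 passed the filter on low counts, as did 9431 genes in all. The cells were follicular (FO) B cells, the main recirculating B cell subset of the spleen, sorted from 10-week-old C57BL/6 mice with no engineered allele named. The 4 groups of 3 samples were unstimulated cells, cells stimulated for 12 h with interferon-alpha (IFNα, at 0.1 µg/mL), cells stimulated for 12 h with the TLR9 agonist CpG (1 µg/mL), and cells given CpG + IFNα together. The labels do not say whether unstimulated cells were kept in culture, so an effect of culture cannot be told apart from that of a stimulus in comparisons with them. RNA was counted as unique molecules from the 3′ end of transcripts (bulk RNA barcoding, BRB-seq), so counts do not grow with transcript length.

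PARP proteins carry an ADP-ribosyltransferase fold that uses NAD to modify proteins or nucleic acids. PARP1 and PARP2 are nuclear enzymes that build poly-ADP-ribose chains at DNA breaks. PARP8, PARP10, PARP11, PARP12 and PARP14 attach single ADP-ribose units, PARP9 works as a partner of the ubiquitin ligase DTX3L, and ZC3HAV1 (ZAP, also PARP13) has lost the catalytic activity and binds viral RNA. Several of these genes are known as interferon-stimulated genes, which the transcription factor complex ISGF3 switches on after the type I interferon receptor has been bound. In B cells PARP14 is known as a cofactor of STAT6 in the response to interleukin-4.

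Between 922450 and 2923865 molecules were counted per sample. The 10 genes together held 0.0847 to 0.0880% of all counts in unstimulated samples, 0.205 to 0.226% with IFNα, 0.0546 to 0.0579% with CpG and 0.0916 to 0.0965% with CpG + IFNα. Levels are given as CPM (molecules of a gene per 1000000 counted) after TMM scaling, and a gene was called where edgeR's quasi-likelihood test gave a Benjamini-Hochberg adjusted p under 0.1 and the level changed more than 2-fold. All 8 B cell markers were detected in every group, at a summed level of 8038 to 9234 CPM in unstimulated samples, 6962 to 7875 CPM with IFNα, 1376 to 1545 CPM with CpG and 1208 to 1320 CPM with CpG + IFNα, and 7 of them, all but Pax5, were called lower with CpG. Fcer2a (mean 1227 CPM unstimulated, 244 CPM with IFNα) and Cr2 (412 and 81.5 CPM) were also called lower with IFNα alone. Both were called lower again when IFNα was added to CpG. No marker of T cells, natural killer cells, myeloid cells or plasmacytoid dendritic cells passed the filter on low counts, and none of these lists summed to more than 22.5 CPM in any sample. Erythroid markers summed to 36.2 to 261 CPM in unstimulated samples, 9.16 to 271 CPM with IFNα, 3.49 to 44.2 CPM with CpG and 1.03 to 49.6 CPM with CpG + IFNα. Plasma cell markers summed to between 3.68 and 35.9 CPM. The part of cell composition in the results below was not tested, and in such bulk samples fewer cells of a type and less RNA per cell cannot be told apart.

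**Figure D1:**
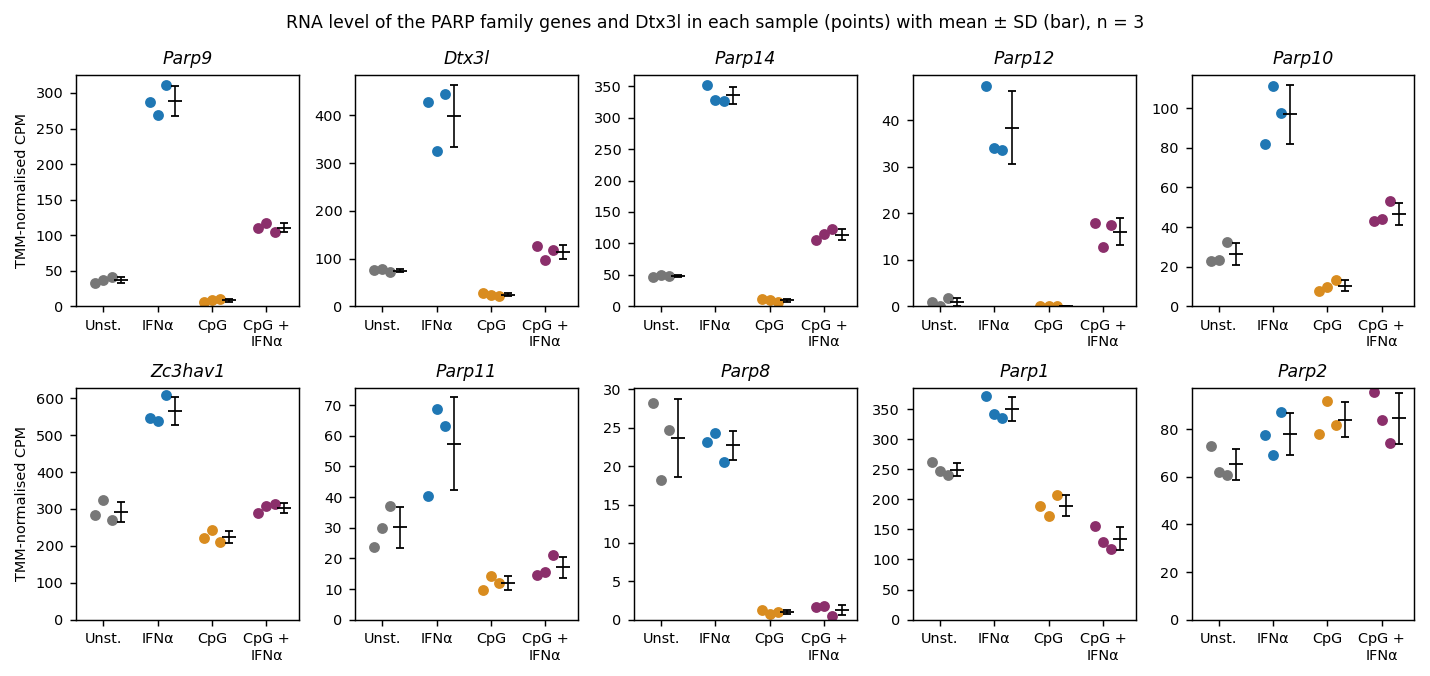
RNA level of each gene in TMM-normalised CPM (y axis, linear and starting at 0) in the 3 samples of each group (points), with the mean and SD beside them. Parp9, Dtx3l, Parp14, Parp12 and Parp10 have their highest levels with IFNα and their lowest with CpG, Parp8 is near 0 in both CpG groups, and Parp2 stays between 60.9 and 95.5 CPM in all 12 samples.

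The first comparison asked which of the genes answered IFNα alone. IFNα raised 5 of the 10 genes (Parp9, Dtx3l, Parp14, Parp12 and Parp10) and none was called lower, where 4.56% of all genes tested were called higher and 4.07% lower. The median log2 fold change was 1.42 over the 10 genes and -0.00 over all genes tested. Since the set was picked as interferon-induced, these values describe it and are no test of it. These 5 genes covered a wide range of levels before stimulation, from 0.892 CPM for Parp12 to 75.03 CPM for Dtx3l.

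Parp9 and Dtx3l encode the partners of a heterodimer and lie head to head on chromosome 16. In the GRCm38 annotation Dtx3l spans chr16:35926511-35939151 on the minus strand and Parp9 spans chr16:35938470-35972605 on the plus strand, so the genes overlap by 682 bases, 458 of them exonic in both. The overlap is at their starts and holds none of the last 500 exonic bases of either gene, where 3′ reads are expected to fall. Parp14 lies on the minus strand of the same chromosome at chr16:35832874-35871544, with 54966 bases between it and Dtx3l. The 3 genes together span 139.73 kb.

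Parp9 was at 32.8, 37.4 and 40.6 CPM in the unstimulated samples and at 287, 269 and 311 CPM with IFNα. The groups were far apart, and the level rose 7.80-fold (log2 fold change 2.96, SE 0.15, adjusted p = 1.05e-17). Dtx3l went from 75.5, 78.1 and 71.5 CPM to 427, 325 and 444 CPM. The lowest IFNα sample was still far above every unstimulated sample, and the gene rose 5.30-fold (log2 fold change 2.40, SE 0.14, adjusted p = 1.15e-15). Parp14, the third gene of this stretch of chromosome 16, was at 46.4, 49.2 and 48.5 CPM without stimulation and at 351, 328 and 327 CPM with IFNα. Its replicates were the tightest of these 3 genes, and it rose 6.96-fold (log2 fold change 2.80, SE 0.14, adjusted p = 7.39e-18).

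Parp12, a mono-ADP-ribosyltransferase with CCCH zinc fingers, changed from near absence to a clear signal. Its raw counts were 1, 0 and 2 in the unstimulated samples and 47, 56 and 44 with IFNα. At so few counts a fold is better given by its counting interval: the depth-scaled ratio was 39.3, with an exact 95% interval of 13.2 to 193 that covers counting error only. The test gave an adjusted p of 2.69e-10. Parp10, another mono-ADP-ribosyltransferase, went from 22.7, 23.5 and 32.6 CPM to 81.7, 111 and 97.7 CPM, a 3.69-fold rise (log2 fold change 1.89, SE 0.19, adjusted p = 1.14e-09). Of the last 500 exonic bases of Parp10, 205 are shared with exons of Plec on the same strand, so how reads were split there could touch its counts.

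Zc3hav1 and Parp11 stood just under the fold threshold. Zc3hav1, the RNA-binding antiviral factor ZAP, had the highest mean of the 10 genes in unstimulated cells, at 283, 323 and 271 CPM, and reached 547, 538 and 608 CPM with IFNα. The groups did not overlap, and the level was 1.93-fold as high (log2 fold change 0.95, SE 0.11, adjusted p = 2.56e-08). Without the second unstimulated sample its log2 fold change was 1.03, which would have been called. Parp11, a mono-ADP-ribosyltransferase found at the nuclear envelope, went from 23.7, 29.9 and 37.1 CPM to 40.4, 68.7 and 63.3 CPM. That was 1.94-fold (log2 fold change 0.96, SE 0.21, adjusted p = 0.00101), and it would have been called without the first IFNα sample (1.13) or without the third unstimulated sample (1.11).

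Parp11 was also the only member with an interferon motif among those with a promoter entry, which is why its sequence is shown. RefSeq promoter windows (250 bases before to 50 bases after a gene's start, GRCm38.p6) were found for 7 of the 10 genes, with 2 windows for Parp11, of which the upstream one held the motifs. Parp9, Parp10 and Parp14 have no entry. The windows were searched on both strands for the interferon-stimulated response element written as GAAANN followed directly by GAAA, which ISGF3 is known to bind, and for the GAS element, TTC and GAA with any 3 bases between them, known from genes that answer interferon-gamma. The matches lie 44 and 37 bases before the start of Parp11, overlap each other, and are in capitals here, the first at chr6:127446786-127446815 and the second at chr6:127446793-127446822, both shown on the plus strand. The first reads as the response element on the minus strand.
Parp11 response element: ttccttttagTTTCGATTTCttggaacccg
Parp11 GAS element: tagtttcgatTTCTTGGAAcccgtggcatg
The response element was found in 3.443% of all 32851 windows, in 3.334% of the windows of genes tested and in 15.81% of the 430 windows of genes that IFNα raised. The GAS element was found in 8.298% of all windows, in 6.842% of those of genes tested and in 9.767% of those of genes that IFNα raised. A match is a run of letters and not a shown binding site, and no match in the other windows says only that the letters are not there.

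Parp8, Parp1 and Parp2 differed from the rest. Parp8, a mono-ADP-ribosyltransferase of little known function, was at 28.2, 18.2 and 24.7 CPM in unstimulated samples and at 23.2, 24.3 and 20.6 CPM with IFNα. The samples of both groups were intermixed, with a log2 fold change of -0.07 and a 95% interval of -0.60 to 0.46 (adjusted p = 0.895). Parp1, the main poly-ADP-ribose polymerase, was at 261, 247 and 240 CPM without stimulation and at 372, 342 and 335 CPM with IFNα. Although listed as not expected to answer interferon, Parp1 was higher in all 3 IFNα samples than in any unstimulated one, at 1.40-fold (log2 fold change 0.49, SE 0.12, adjusted p = 0.0022), which did not reach the fold threshold. Parp2, which shares the DNA break function, was at 72.8, 62.0 and 60.9 CPM and then at 77.7, 69.3 and 87.0 CPM. These values overlapped, and the 95% interval of the log2 difference ran from -0.06 to 0.56 (adjusted p = 0.288).

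**Figure D2:**
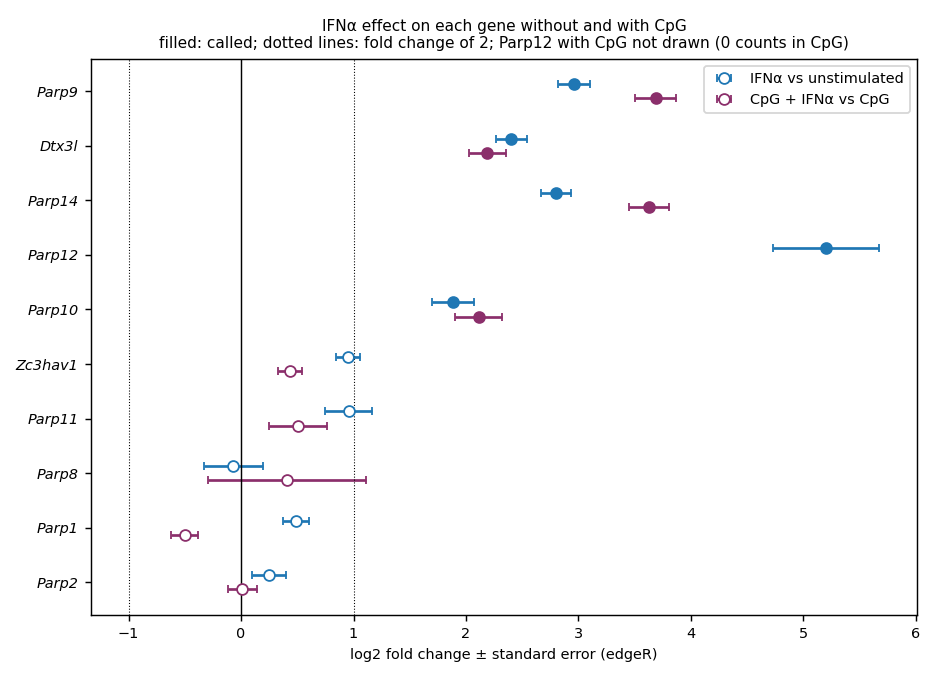
Log2 fold change of each gene with its standard error (x axis) for IFNα without CpG and for IFNα with CpG, where filled points were called and dotted lines mark a 2-fold change. Parp9, Dtx3l, Parp14 and Parp10 lie beyond the right dotted line for both, while Parp1 lies at 0.49 without CpG and at -0.50 with CpG. Parp12 with CpG is not drawn because it had no count in the CpG samples.

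The next comparison asked whether IFNα still acted on these genes when CpG was present, by setting CpG + IFNα against CpG. The called genes were Parp9, Dtx3l, Parp14, Parp12 and Parp10, again 5 higher and 0 lower, against 2.95% of all genes tested called higher and 2.01% lower. The median log2 fold change was 1.31 over the 10 genes and -0.04 over all genes tested. This comparison shares no sample with that of IFNα against unstimulated cells.

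Parp9 was at 5.53, 9.27 and 10.5 CPM with CpG and at 110, 117 and 104 CPM with CpG + IFNα, a 12.9-fold rise (log2 fold change 3.69, SE 0.18, adjusted p = 2.17e-17). Parp14 went from 11.7, 9.98 and 6.49 CPM to 105, 115 and 123 CPM, a 12.4-fold rise (log2 fold change 3.63, SE 0.18, adjusted p = 1.41e-17). Neither gene came near an overlap between the groups. Dtx3l rose from 28.2, 23.5 and 22.5 CPM to 125, 97.98 and 118 CPM, which was 4.57-fold (log2 fold change 2.19, SE 0.16, adjusted p = 1.14e-12). Parp10 went from 7.98, 9.98 and 13.5 CPM to 43.1, 43.8 and 52.9 CPM, a 4.32-fold rise (log2 fold change 2.11, SE 0.21, adjusted p = 2.05e-09). Parp12 had no count in any CpG sample and 33, 37 and 34 counts with CpG + IFNα. Against a limit of 3 counts over the CpG group, its level was at least 26.1-fold higher, with an adjusted p of 2.36e-09.

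The other 5 genes were not called in this comparison. Zc3hav1 was at 220, 242 and 210 CPM with CpG and at 288, 307 and 312 CPM with CpG + IFNα, without overlap and at 1.35-fold (adjusted p = 0.00571). Parp11 was at 9.82, 14.3 and 12.0 CPM and then at 14.7, 15.5 and 21.1 CPM, where the 95% interval of the log2 difference ran from -0.03 to 1.04 (adjusted p = 0.242). Parp1 moved the other way: its CpG samples stood at 189, 172 and 207 CPM and its CpG + IFNα samples at 156, 129 and 118 CPM, each below every CpG sample (log2 fold change -0.50, SE 0.12, adjusted p = 0.0029, under 2-fold). Parp2 was at 78.0, 92.0 and 81.9 CPM with CpG and at 95.5, 83.8 and 74.0 CPM with CpG + IFNα, intermixed, with a 95% interval of the log2 difference from -0.25 to 0.28. Parp8 had 2, 1 and 2 counts with CpG and 3, 5 and 1 with CpG + IFNα, and at this depth no difference was detectable (ratio 1.36, exact 95% counting interval 0.408 to 5.15).

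The interaction term tested whether the effect of IFNα with CpG differed from its effect without. No member was called higher or lower on this term, with 3.09% and 3.17% of all genes tested called. For 4 members the adjusted p was under 0.1 at a difference of less than 2-fold. With no fold threshold, 551 of the 9431 genes tested were higher and 715 lower on this term at an adjusted p under 0.1. These 4 members are to be read beside those counts and not beside the shares that need a 2-fold difference. The effect of IFNα on Parp1 was lower by 0.99 on the log2 scale with CpG than without (-0.99, SE 0.17, adjusted p = 9.73e-05), and its direction turned from higher to lower. That of Zc3hav1 was also smaller with CpG (-0.52, SE 0.15, adjusted p = 0.03). Those of Parp14 (0.83, SE 0.25, adjusted p = 0.0317) and Parp9 (0.72, SE 0.27, adjusted p = 0.0863) were larger with CpG in fold, from lower starting levels and to lower end levels, but that of Parp9 had an adjusted p of 0.159 with DESeq2 and of 0.722 at the smallest depth. For Parp12 the term could not be read, because the CpG samples held no count. Their partner Dtx3l had a difference of -0.21 with a 95% interval from -0.68 to 0.25 (adjusted p = 0.636).

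**Figure D3:**
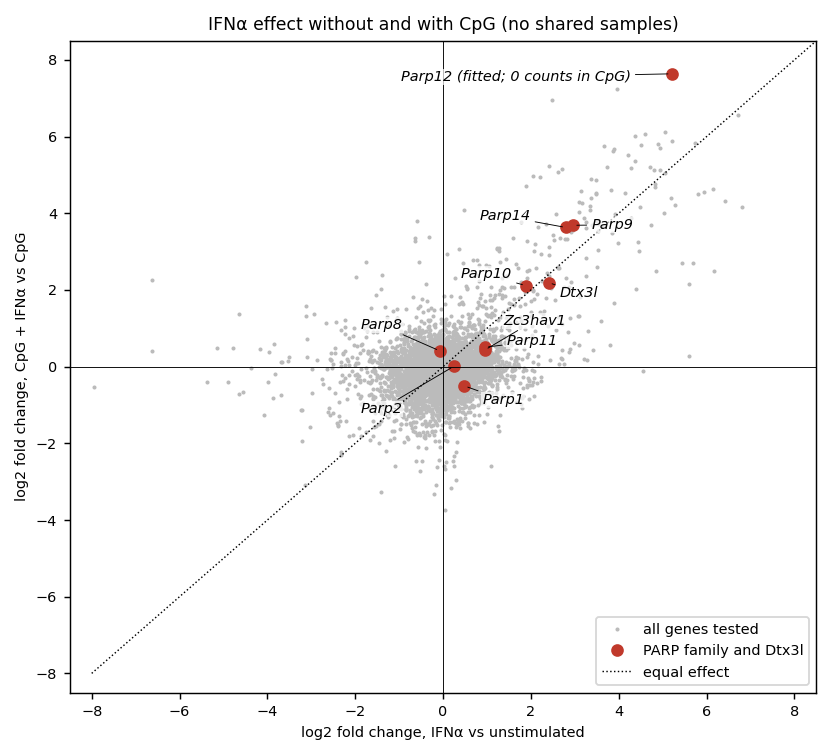
Log2 fold change of IFNα against unstimulated cells (x axis) and of CpG + IFNα against CpG (y axis) for all 9431 genes tested (grey) and the 10 members (red), with the line of equal effect dotted. Parp9 and Parp14 lie above the line, Dtx3l and Parp10 near it, and Parp1 lies at the lower right of the origin. The position of Parp12 on the y axis is a fitted value, since its CpG samples had no count.

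CpG alone was compared with unstimulated cells to see how TLR9 stimulation acted on the genes. None of the 10 was called higher with CpG and 7 were called lower, where 20.1% of all genes tested were called higher and 25.5% lower. The median log2 fold change was -1.47 over the 10 genes and -0.03 over all genes tested. The called genes were Parp8, Parp14, Parp9, Dtx3l, Parp11, Parp10 and Parp12, but Parp12 had 3 counts or fewer in both groups, so no fold is given for it, and without the third unstimulated sample it was not called. Beside the lower B cell sums given above, the myeloid markers summed to 4.41 to 22.5 CPM in unstimulated and 0.713 to 2.995 CPM in CpG samples, the plasma cell markers to 24.6 to 31.8 and 3.68 to 5.49 CPM, and both erythroid genes tested, Hba-a1 and Hbb-bs, were called lower. Their part in these differences was not tested.

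Parp8 had the largest change of the 10 members, leaving out Parp12. From the 76 counts in the unstimulated group it dropped to 5 in the CpG group, a ratio of 24.2 between unstimulated and CpG (exact 95% counting interval 9.91 to 76.5, adjusted p = 9.21e-11). Parp14 fell to 0.192 of its unstimulated level (log2 fold change -2.38, SE 0.22, adjusted p = 1.77e-11). Parp9 fell to 0.232 of it (-2.10, SE 0.24, adjusted p = 1.81e-09), and Dtx3l to 0.330 (-1.60, SE 0.18, adjusted p = 3.42e-09). For these genes the highest CpG sample lay below the lowest unstimulated sample. Parp11 fell to 0.396 (-1.34, SE 0.27, adjusted p = 4.58e-05) and Parp10 to 0.405 (-1.30, SE 0.26, adjusted p = 5.19e-05).

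The members that were not called moved less. Parp1 was at 0.762 of its unstimulated level with CpG (log2 fold change -0.39, SE 0.12, adjusted p = 0.0041) and Zc3hav1 at 0.767 (-0.38, SE 0.11, adjusted p = 0.00345), in each case without overlap between the groups. Parp2 was the only member with a higher level, at 1.28-fold (0.36, SE 0.15, adjusted p = 0.0323), but its adjusted p with DESeq2 was 0.111.

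**Figure D4:**
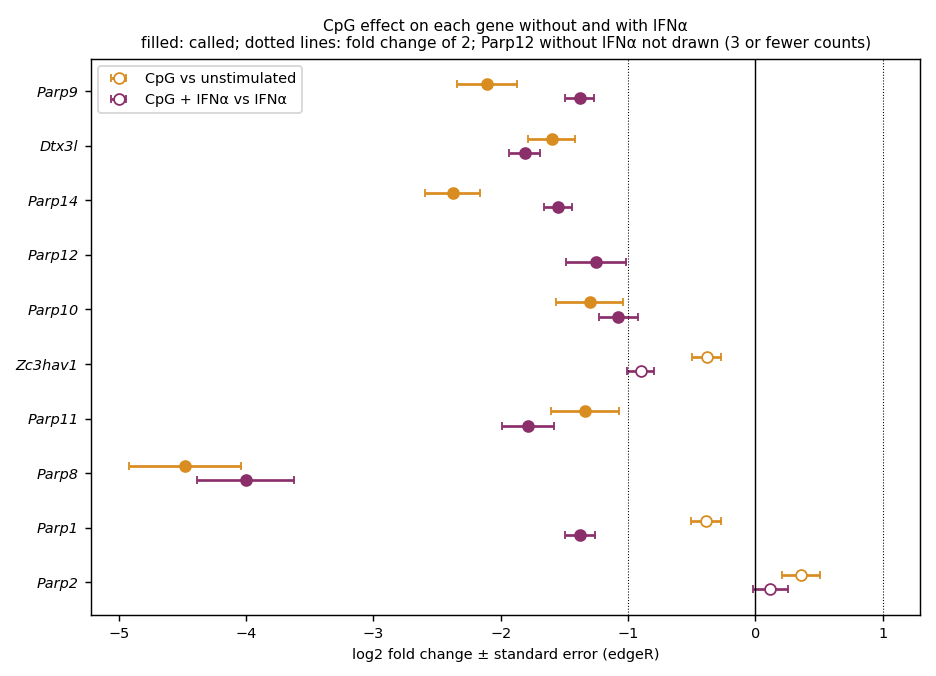
Log2 fold change of each gene with its standard error (x axis) for CpG without IFNα and for CpG with IFNα, where filled points were called and dotted lines mark a 2-fold change. Parp8 lies farthest to the left, at -4.48 and -4.004, and Parp2 is the only gene to the right of 0. Parp12 without IFNα is not drawn because it had 3 counts or fewer in both groups.

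The same question was put in the presence of IFNα, with CpG + IFNα against IFNα. Here 8 members were called lower and none higher, all but Parp2 and Zc3hav1, with 18.7% of all genes tested called higher and 25.5% lower. The median log2 fold change was -1.38 over the 10 genes and -0.07 over all genes tested. Parp8 had 90 counts with IFNα and 9 with CpG + IFNα, a ratio of 16.9 (exact 95% counting interval 8.53 to 38.2). Dtx3l fell to 0.285 of its level with IFNα alone (log2 fold change -1.81, SE 0.12, adjusted p = 1.08e-14) and Parp11 to 0.290 (-1.79, SE 0.20, adjusted p = 2.39e-09). Parp14 fell to 0.342, Parp9 to 0.384 and Parp1 to 0.384, with adjusted p values of 3.39e-14, 1.17e-12 and 2.16e-12. Parp12 fell to 0.419 (adjusted p = 2.38e-05) and Parp10 to 0.474 (adjusted p = 2e-07). Parp10 was the closest to the threshold, and without the second IFNα sample its log2 fold change was -0.95 and it was not called. Zc3hav1 was at 0.536 of its level with IFNα (log2 fold change -0.90, SE 0.11, adjusted p = 4.71e-09), short of the fold threshold, and Parp2 had a difference of 0.12 with a 95% interval from -0.16 to 0.40.

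Set against unstimulated cells, CpG + IFNα left the members spread on both sides. Parp12, Parp9 and Parp14 were called higher and Parp8 lower, that is 3 and 1 of the 10, where 20.3% of all genes tested were called higher and 25.6% lower. The median log2 fold change was 0.48 over the 10 genes and -0.01 over all genes tested. Parp12 stood at a ratio of 16.4 to unstimulated cells (exact 95% counting interval 5.47 to 81.0). Parp9 was 2.99-fold as high (log2 fold change 1.58, SE 0.15, adjusted p = 5.75e-11) and Parp14 was 2.38-fold as high (1.25, SE 0.14, adjusted p = 2.24e-09). Parp10 (0.81, SE 0.20, adjusted p = 0.000552) and Dtx3l (0.59, SE 0.15, adjusted p = 0.000641) had higher levels below the 2-fold threshold, and Parp10 passed it without the third unstimulated sample (1.03). Zc3hav1 had a log2 difference of 0.05 from its unstimulated level (95% interval -0.17 to 0.28), and its sign turned under upper quartile scaling and at the smallest depth. Parp11 was lower at 0.562 of the unstimulated level (-0.83, SE 0.24, adjusted p = 0.00258) and Parp1 at 0.538 (-0.89, SE 0.12, adjusted p = 5.9e-08). Parp2 was 1.29-fold as high (0.37, SE 0.14, adjusted p = 0.0236), short of the fold threshold. The ratio for Parp8 between unstimulated and CpG + IFNα cells was 17.8 (exact 95% counting interval 8.90 to 40.4).

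The remaining pair was CpG against IFNα. Again 8 members were called lower and none higher, this time all but Parp1 and Parp2, with 19.4% of all genes tested called higher and 24.7% lower. The level of Parp14 with CpG was 0.0276 of that with IFNα (log2 fold change -5.18, SE 0.16, adjusted p = 1.87e-23) and that of Parp9 was 0.0298 of it (-5.07, SE 0.17, adjusted p = 9.3e-23). Dtx3l stood at 0.0623 (-4.004, SE 0.15, adjusted p = 3.68e-21) and Parp10 at 0.110 (-3.19, SE 0.20, adjusted p = 2e-15). Parp11 was at 0.204 of its IFNα level and Zc3hav1 at 0.397. The ratio of IFNα to CpG was 23.0 for Parp8 (exact 95% counting interval 9.49 to 72.4), and Parp12 had 147 counts with IFNα and none with CpG. Parp1, at 0.544 (-0.88, SE 0.11, adjusted p = 4.11e-08), did not reach the fold threshold. All 6 of these comparisons between pairs of groups come from 4 groups of samples, so each shares samples with others and they are not independent.

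From these values the members fell into 5 orders of level over the groups. Parp9, Parp14, Parp10, Dtx3l and Parp12 had their lowest mean with CpG, then unstimulated, then CpG + IFNα, then IFNα, and each neighbouring pair in that order differed at an adjusted p under 0.1, although for Parp12 the lowest pair was at or under 3 counts. Zc3hav1 had the same order, with no difference detected between unstimulated cells (292 ± 27.3 CPM, SD, n = 3) and CpG + IFNα (303 ± 12.8 CPM, SD, n = 3, adjusted p = 0.679). Parp11 went from CpG (12.0 ± 2.22 CPM) and CpG + IFNα (17.1 ± 3.46 CPM), which did not differ by the test, to unstimulated (30.2 ± 6.71 CPM) and IFNα (57.5 ± 15.1 CPM). Parp8 fell into a lower pair (CpG 0.980 ± 0.258 CPM, CpG + IFNα 1.29 ± 0.675 CPM) and an upper pair (IFNα 22.7 ± 1.91 CPM, unstimulated 23.7 ± 5.09 CPM) with no difference found inside either. Parp1 had its means in the order CpG + IFNα (135 ± 19.4 CPM), CpG (190 ± 17.3 CPM), unstimulated (249 ± 10.8 CPM) and IFNα (350 ± 19.8 CPM), with each neighbouring pair apart. Parp2 had no pair of neighbours that differed by the test, from 65.2 ± 6.57 CPM in unstimulated cells to 84.4 ± 10.7 CPM with CpG + IFNα, although these ends of its order did differ (1.29-fold, adjusted p = 0.0236).

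The balance between the partners Dtx3l and Parp9 also varied. The ratio of Dtx3l to Parp9 counts stood at 3.26 ± 1.61 in CpG samples, 2.05 ± 0.274 without stimulation, 1.37 ± 0.150 after IFNα and 1.04 ± 0.174 where both were given (mean ± SD, n = 3 each). In CpG samples it ran from 2.14 to 5.11, on 9 to 21 Parp9 counts a sample, so the value there is imprecise. These are ratios of RNA counts and say nothing of protein amounts.

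For each member the 3 genes with the most similar profile were taken by Pearson's r of log2(CPM + 4) over the 12 samples, which share the 4 groups, so a high r mostly follows the group means. Parp9 was closest to Rnf213 (r = 0.994), Irf9 and Trim12c, Parp14 to Trim12c (r = 0.997), Slfn8 and Ifi213, and Dtx3l to Slfn2 (r = 0.995), Slfn5 and Cmpk2. Parp12 was closest to Tor3a (r = 0.992), Oas3 and Ifit1, and Parp10 to Parp9 itself (r = 0.987), Herc6 and Trim12c. Oas3, Ifit1 and Irf9 are well known interferon-stimulated genes. Zc3hav1 was closest to Tlr9 (r = 0.984), the receptor for CpG, Tor1aip1 and Ly6c2. Parp11 lay next to Camkk2 (r = 0.978), Nsd3 and Ocel1, Parp8 next to Rdh12 (r = 0.994), Zfp950 and Prkd2, Parp1 next to Tmem134 (r = 0.964), Zfp260 and Vps28, and Parp2 next to Gins4 (r = 0.926), Tex261 and Cox18. With Spearman's rho in place of Pearson's r, 4 of these 30 names were kept.

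Genes that work with the members were read from lists of the same pathways. Counts in these small lists stand beside the shares over all genes tested. These were 4.56% higher and 4.07% lower with IFNα, and 2.95% and 2.01% with IFNα added to CpG. They were 20.1% and 25.5% with CpG, and 18.7% and 25.5% for CpG + IFNα against IFNα. Of the 6 genes read here for ISGF3, its kinases and the interferon receptor, Stat2 (log2 fold change 2.78) and Irf9 (1.78) rose with IFNα, and the same 2 rose when IFNα was added to CpG (3.33 and 2.21). The other 4, Jak1, Tyk2, Ifnar1 and Ifnar2, were not called in either. With IFNα alone Jak1 was 1.28-fold higher (adjusted p = 0.0286) and Tyk2 at 0.689 of its unstimulated level (adjusted p = 0.0341), both short of the fold threshold. CpG alone lowered 5 of the 6, from Stat2 (-3.49) to Ifnar1 (-1.33), and Ifnar2 was not called. The median of the 6 was 0.20 with IFNα, -0.01 with IFNα added to CpG and -1.40 with CpG. Stat2 and Irf9 had the direction of Parp9, Parp14 and Dtx3l in each of these comparisons. This did not hold for Stat2 in CpG + IFNα against unstimulated cells. There Stat2 stood at -0.16 (adjusted p = 0.375) and Irf9 at 0.87 (adjusted p = 7.52e-07), neither called. Parp9 (1.58) and Parp14 (1.25) were called higher in that comparison, and Dtx3l (0.59) was not called.

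Of 3 partners of ZAP, Trim25, a ubiquitin ligase that ZAP needs as a cofactor, rose with IFNα (1.35, SE 0.13) and on top of CpG (1.44, SE 0.13), and fell with CpG alone (-1.07, SE 0.15). Khnyn and N4bp1, which encode related endonucleases, were not called in these 3 comparisons, but had changes short of the fold threshold. N4bp1 was 1.66-fold higher with IFNα (adjusted p = 0.00244) and 1.80-fold higher on top of CpG (adjusted p = 0.000295). Khnyn was 1.36-fold higher with IFNα (adjusted p = 0.0552) and at 0.588 of its unstimulated level with CpG (adjusted p = 0.000378). The list's median was 0.74, 0.85 and -0.77 in that order.

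Among 7 other PARP family genes, 6 were tested and none was called with IFNα, alone or on top of CpG. Tiparp was 1.75-fold higher on top of CpG (log2 fold change 0.81, SE 0.20, adjusted p = 0.00437) and Parp3 was at 0.698 of its unstimulated level with IFNα alone (-0.52, SE 0.22, adjusted p = 0.0951), both short of the fold threshold. CpG lowered 3, Parp4 (-2.61, SE 0.25), Parp3 (-2.28, SE 0.25) and Tiparp (-1.11, SE 0.21). The tankyrases Tnks and Tnks2 and also Parp6 were not called, and the list's median was -0.09 with IFNα, 0.19 with IFNα added to CpG and -1.04 with CpG. All 4 other Deltex genes were tested. Dtx4 (1.48, SE 0.43) rose and Dtx1 (-1.01, SE 0.13) and Dtx3 (-1.05, SE 0.38) fell with IFNα, none was called when IFNα was added to CpG, and Dtx1 (-2.06, SE 0.14) and Dtx3 (-1.39, SE 0.38) fell with CpG. The Dtx3 call with IFNα had an adjusted p of 0.0519. Its samples overlapped, at 9.10 to 32.1 CPM unstimulated and 6.05 to 16.4 CPM with IFNα. Those with CpG also overlapped the unstimulated ones. For Dtx4 the IFNα effect also differed with CpG by the interaction term (-2.004, SE 0.56, adjusted p = 0.0203). It was 1.48 without CpG and -0.52 with CpG, on no more than 8 counts in any unstimulated sample. The Deltex medians were -0.62, -0.39 and -1.08.

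Genes that remove ADP-ribose, and genes that supply or use NAD, made up 3 lists. Of 7 tested erasers of ADP-ribose, none was called with IFNα alone, where Adprhl2 was 1.36-fold higher (0.45, SE 0.19, adjusted p = 0.0978) but short of the fold threshold. CpG raised Adprhl2 (1.06, SE 0.17) and lowered Enpp1 (-2.02, SE 0.30), and CpG + IFNα had less Macrod1 than CpG (-1.71, SE 0.56, adjusted p = 0.0421), on no more than 14 counts a sample. The median of this list was -0.04 with IFNα, -0.10 with IFNα added to CpG and -0.45 with CpG. Of 5 tested genes of NAD synthesis, neither IFNα comparison called any, while CpG raised Nadk (1.46, SE 0.14) and Nampt (1.07, SE 0.14), the rate-limiting enzyme of the NAD salvage route, and lowered Nadsyn1 (-1.77, SE 0.36), with medians of 0.14, -0.29 and 0.31. Short of the fold threshold, Nampt was 1.83-fold higher with IFNα alone (adjusted p = 1.58e-05) and 1.60-fold higher on top of CpG (adjusted p = 0.000118). Nadk was at 0.770 of its CpG level when IFNα was added to CpG (adjusted p = 0.033). Of 5 other tested NAD consumers, CpG lowered Cd38 (-2.65, SE 0.19), an NAD-cleaving surface enzyme, and the deacylases Sirt7 (-1.57, SE 0.14) and Sirt2 (-1.33, SE 0.19), and neither IFNα comparison called any, with medians of -0.18, -0.20 and -1.33.

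Partners of PARP1 and PARP2 in the repair of DNA breaks were the last list, with 7 of the 8 read here tested. Lig3, a DNA ligase, was lower with IFNα (-1.11, SE 0.45, adjusted p = 0.0822), on no more than 13 counts in any of the samples compared, and its IFNα effect was higher with CpG than without (1.45, SE 0.51, adjusted p = 0.0716). Chd1l, a chromatin remodeller recruited by poly-ADP-ribose, rose with CpG (1.03, SE 0.18). No other gene of the list was called in either IFNα comparison or with CpG alone, and the medians were -0.27 with IFNα, 0.078 with IFNα added to CpG and 0.30 with CpG. Relative to IFNα alone, CpG + IFNα cells had more Lig3 (2.22), Hpf1 (1.29), the factor that directs PARP1 and PARP2 to serine, and Chd1l (1.03), in the same comparison in which Parp1 fell by 1.38 on the log2 scale.

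**Figure D5:**
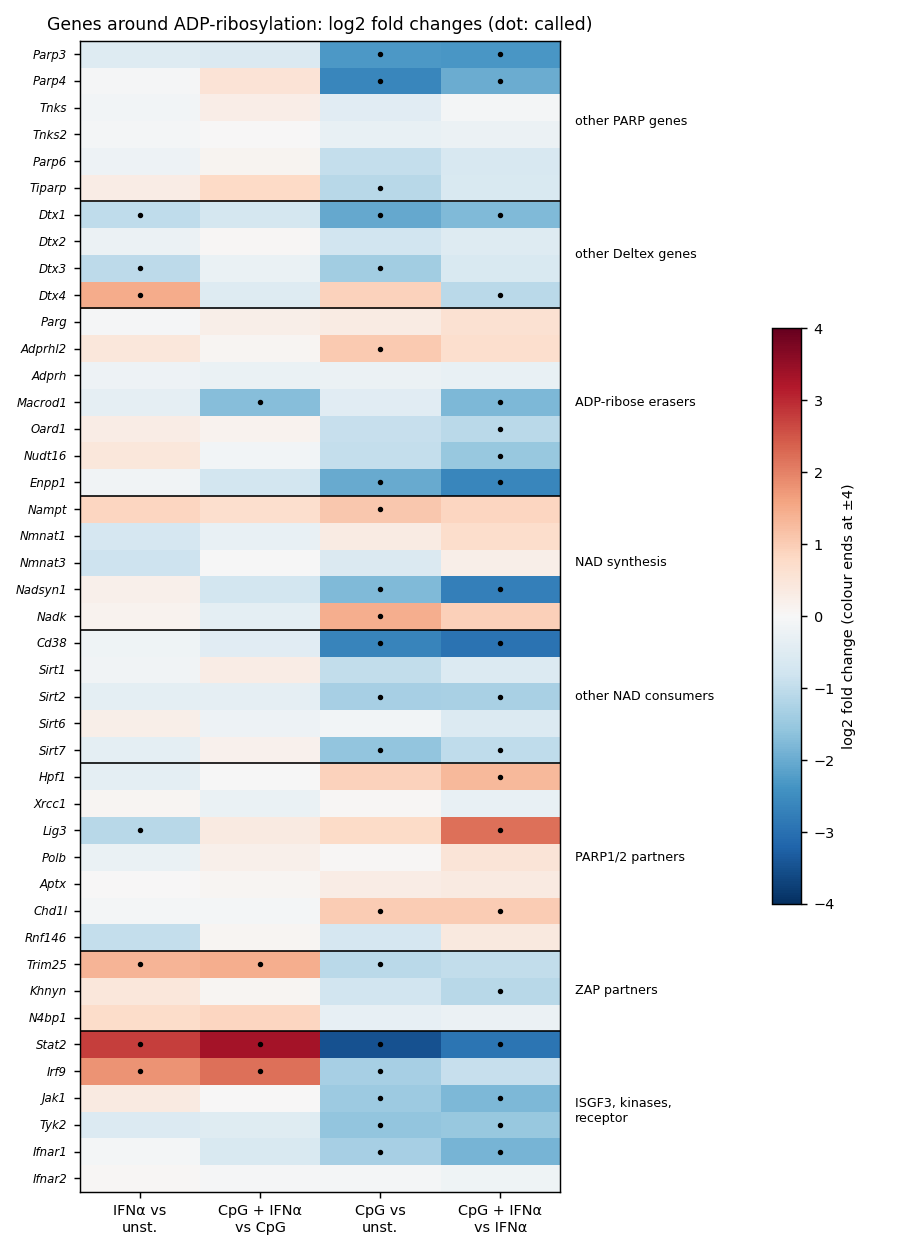
Log2 fold changes (colour, ending at ±4) of the tested genes of 8 pathway lists in 4 comparisons, where a dot marks a called gene. Stat2, Irf9 and Trim25 are red in both IFNα columns, and Parp3, Parp4, Enpp1, Nadsyn1 and Cd38 are blue in both CpG columns.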

How the data were processed

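RNA of FO B cells was measured by BRB-seq in 12 samples, 3 in each of 4 groups taken from the sample titles. The deposited values are counts: per the labels and the study's methods, the authors extracted barcodes and UMIs with UMI-tools 1.1.2, trimmed reads with Trim Galore 0.6.7, mapped them to GRCm38 with HISAT2 2.2.1, assigned them to genes with featureCounts 2.0.1 and counted unique UMIs per gene. Tlr9 was extended by 3 kb. The annotation release and strand setting are not given in the sources used here, so antisense partners cannot be told apart, and near-identical copies were not resolved. The doses printed are those of the study's culture methods and of its legend for the sequencing experiment, whereas some supplementary legends give 0.1 µg/mL for CpG when combined with IFNα. All 22561 gene identifiers matched GENCODE M21, from which positions were read.

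Totals of 922450 to 2923865 per sample were scaled by TMM, genes were filtered with filterByExpr, and the 4 groups were fitted together with edgeR 4.0.16 in R 4.3.3 (quasi-likelihood test, 8 residual degrees of freedom, Benjamini-Hochberg adjustment over 9431 genes within each of 7 comparisons). The study used DESeq2, which was run here as an alternative (1.42.0) along with other scalings, filters, thresholds and left-out samples. Intervals on ratios of counts, and the floor of 3 counts over a group, cover counting error only. On simulated counts with a 4-fold change (2 on the log2 scale) in 200 of 9156 genes tested, the fit recovered 96% for CpG + IFNα against unstimulated, 97% against CpG and 91.5% for the interaction. It falsely called 5, 5 and 13 other genes. The changes were set in the CpG + IFNα group only. In the data many more genes were called against unstimulated cells (20.3% higher and 25.6% lower), a setting that was not simulated. Replicates of a group differed by more than sampling noise (chi-square per degree of freedom 1.90 to 6.31). The labels do not say whether replicates came from separate mice, so p-values measure the spread between these samples. The members and the lists of pathway genes and markers were chosen with earlier results of these data known. All members are named, list genes where their list is reported, and for each member the 3 genes with the most similar profile. A list of sample barcodes holds no measurement and entered no fit. Some genes of the pathway lists are not reported here, and the counts and medians of those lists leave them out.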

Additional observations from a re-analysis of the deposited data

Results flagged for a closer look

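The effect of IFNα differed with and without CpG for 4 members, by an interaction term with an adjusted p under 0.1 in edgeR's quasi-likelihood test. By the same rule, with no fold threshold, 551 of the 9431 genes tested were higher and 715 lower. For Parp1 the difference was -0.99 on the log2 scale. All 3 IFNα samples were higher than any unstimulated sample and all 3 CpG + IFNα samples were lower than any CpG sample, and the adjusted p stayed between 1.78e-05 and 0.00165 over 19 alternatives of scaling, filter, depth, block, tool and left-out samples. For Zc3hav1 it was -0.52, with adjusted p values from 0.0156 to 0.191, under 0.1 in 16 of 19 alternatives and highest without the third unstimulated sample. For Parp14 it was 0.83, with adjusted p values from 0.0188 to 0.225, under 0.1 in 17 of 19 and highest without the third CpG sample. For Parp9 it was 0.72, with adjusted p values from 0.0588 to 0.722, under 0.1 in 8 of 19 and highest with every library thinned to the smallest total.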

How the results depend on the processing

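With DESeq2, RLE scaling, or only the groups compared in the fit, every member kept its direction and its side of the thresholds in the comparisons fitted, except that with only the groups compared Parp12 in CpG against unstimulated and Parp8 in CpG + IFNα against CpG did not pass the filter. With a log2 threshold of 2, the counts called higher and lower among all genes were 161 and 90 for IFNα against unstimulated, 539 and 1138 for CpG against unstimulated, 604 and 1222 for CpG + IFNα against unstimulated, 150 and 15 against CpG, 536 and 1162 against IFNα, 520 and 1128 for CpG against IFNα, and 96 and 59 for the interaction. Members lower were then 4 for CpG against unstimulated and 1 for CpG + IFNα against IFNα, and 1 was higher for CpG + IFNα against unstimulated. With no fold threshold the counts were 1173 and 1122, 3444 and 3618, 3545 and 3659, 617 and 833, 3409 and 3749, 3485 and 3635, and 551 and 715 in the same order. Members higher were then 8 for IFNα, 1 for CpG and 6 for CpG + IFNα against unstimulated and 2 for the interaction, and members lower were 3 for CpG + IFNα against unstimulated, 1 against CpG and 2 for the interaction. Genes lower by the interaction numbered 193 with DESeq2 and 196 after each library was thinned to the smallest total.

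Upper quartile scaling moved the median of all genes to -0.14 for CpG + IFNα against unstimulated, where 2 members were then lower (Parp1 joined at -1.03) and Zc3hav1 stood at -0.079, and Parp2 stood at -0.013 in CpG + IFNα against CpG. With library totals only, Parp2 stood at -0.00012 there. With libraries so thinned, Zc3hav1 was at -0.038 in CpG + IFNα against unstimulated, Parp8 at -0.47 in CpG + IFNα against CpG, and the interaction was -0.38 for Parp8 and 0.028 for Parp11. Thinned, Parp12 was not called for CpG against unstimulated (adjusted p = 0.307), and with no filter Parp10 was at -0.96 in CpG + IFNα against IFNα. The causes were not tested. Leaving out each sample in turn, members called by the interaction numbered 0 to 1 higher (Parp14, 1.03 without the first CpG sample) and 0 to 1 lower (Parp1, from -1.01 to -1.10 without the first unstimulated, second IFNα, the third IFNα, second CpG or first CpG + IFNα sample), Parp8 ran from -0.21 to 0.076 for IFNα against unstimulated and Parp2 from -0.077 to 0.091 for CpG + IFNα against CpG.

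With the replicate number of the titles as a block, 5 members were higher in each IFNα comparison and 7 were lower with CpG, and no member's call changed. The deviations of same-numbered samples from their group means had r from -0.07 to 0.22, over 0.1 in 6 of 18 pairs, against -0.22 to 0.066 for other numbers. All 6 were samples numbered 1 or 2 in the 3 stimulated groups, and 0 of 12 samples correlated best with its own number in all 3 other groups. A barcode list repeats the numbers in every condition without saying that they mark a mouse, and since not every pair was over 0.1 the samples were fitted without a block. Parp12 and Parp8 are limited by depth, at 0 to 5 counts a sample in their lowest groups.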
